A study of Homo sapiens with 3 samples.

Results

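MALAT1, NEAT1, KCNQ1OT1 and GAS5 are long noncoding RNAs, described here in a pool of mesothelioma cells. They were taken by name from the expression rows and are 4 of the 36601 genes listed. Gene expression and chromatin accessibility were measured in the same droplets with the 10x Multiome assay. The pool held CL3 cells under GNE7883, a TEAD inhibitor, CL3 cells under DMSO, parental NCI-H226 cells under GNE7883 and parental cells under DMSO. NCI-H226 is a human mesothelioma line that lacks NF2, a Hippo pathway tumour suppressor, and CL3 is 1 resistant clone raised from it at doses climbing between 0.25 and 3 µM. The labels used here name neither the dose nor the time of the final treatment. The 4 populations carried different hashtag antibodies, and cells were not assigned to them here. All values therefore describe 1 pooled sample without replicates, and no group of cells below is read as a line or a treatment.

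MALAT1 lies in nuclear speckles, bodies rich in splicing factors, and its 3′ end is a stable structure cut by RNase P rather than a usual poly(A) tail. NEAT1 is the scaffold on which paraspeckles form and has a short and a long isoform. KCNQ1OT1 is an unspliced transcript antisense to KCNQ1 that stays at its imprinted chromosomal domain and silences neighbouring genes in cis. GAS5 is a spliced host of small nucleolar RNAs whose exonic transcript reaches the cytoplasm and is degraded there by nonsense-mediated decay.

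Barcodes counted as cells where unique molecular identifiers (UMIs) and peak counts each reached 1000 and mitochondrial genes took no more than 20% of the UMIs, which left 8913 cells. They held 16588148 UMIs, with a median of 1524 (1000 to 13064) and 4034 peak counts per cell. Free RNA was taken from 412157 empty droplets of 1 to 100 UMIs and under 100 peak counts, with 791461 UMIs in all. The expression and accessibility libraries share 232087 barcodes with counts in both. The tissue is labelled as lung epithelium and the cell type as mesothelioma. All 10 mesothelial markers (keratins, CALB2, MSLN, WT1 and others) reached 20 CPM (UMIs of a gene per 1000000 UMIs), while 5 lung and general epithelial markers summed to 1.27 CPM with 2 at 0 UMIs. Immune markers summed to 8.74 CPM, endothelial markers to 19.7 CPM and 4 fibroblast markers to 118 CPM, with 1 of them at 20 CPM or more.

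The 4 lncRNAs took 5.28% of all UMIs in cells. MALAT1 had 797220 UMIs, or 48060 CPM (95% interval 47954 to 48165), the first rank of 24799 detected genes. NEAT1 had 70048 UMIs (4223 CPM, 4192 to 4254) and stood at rank 17. GAS5 had 5508 UMIs (332 CPM, 323 to 341; rank 338) and KCNQ1OT1 had 2682 UMIs (162 CPM, 156 to 168; rank 856). These are shares of counted UMIs, not divided by transcript length, so the ranks do not order the genes by molecules per base. Intervals on levels are exact Poisson intervals and, like all intervals here, cover counting error only. The sources used here do not say whether counting used strand. KCNQ1, which KCNQ1OT1 overlaps in antisense, had 37 UMIs, and GAS5-AS1 had 5 UMIs.

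MALAT1 (ENSG00000251562) is listed with gene starts spanning chr11:65497688-65505207 on GRCh38, and 2 deposited peaks lie over the RefSeq starts at its upstream end. The RefSeq promoter windows of both starts are shown because each falls whole inside one of these peaks. They run from 250 bases before to 50 bases after a start, on the plus strand of GRCh38.p14, a patch release that leaves chromosome coordinates as in GRCh38. Capitals mark matches, on either strand, to the GC box letters GGGCGG in the upstream window and to the TATA box letters TATAAA in the downstream one.
MALAT1 upstream start, chr11:65497488-65497787: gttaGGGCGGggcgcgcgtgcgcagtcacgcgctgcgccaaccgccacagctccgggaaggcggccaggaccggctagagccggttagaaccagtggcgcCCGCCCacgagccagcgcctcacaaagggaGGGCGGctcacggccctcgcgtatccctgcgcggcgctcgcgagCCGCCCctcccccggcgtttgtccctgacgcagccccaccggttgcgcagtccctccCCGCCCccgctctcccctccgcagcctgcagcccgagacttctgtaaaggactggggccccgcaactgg
MALAT1 downstream start, chr11:65498795-65499094: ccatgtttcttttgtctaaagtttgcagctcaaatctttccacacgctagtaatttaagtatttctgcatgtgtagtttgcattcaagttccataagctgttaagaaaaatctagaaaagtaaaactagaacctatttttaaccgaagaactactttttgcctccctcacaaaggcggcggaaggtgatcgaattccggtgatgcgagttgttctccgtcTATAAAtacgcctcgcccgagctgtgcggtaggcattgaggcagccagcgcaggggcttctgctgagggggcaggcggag
The upstream window held 5 GC boxes and a GC content of 73.7%, and the downstream window held 1 TATA box, 30 bases before the start (position -30), and 46.0% GC. Over all 35116 windows of this table the median GC content was 58.7%, and 45.0% held a GC box and 11.5% a TATA box. CCAAT (34.6% of all windows), the TEAD motif GGAATG (14.0%) and the AP-1 motif TGANTCA (7.71%) had no match in either MALAT1 window. The RefSeq window of GAS5 (ENSG00000234741; chr1:173868996-173869295, minus strand) overlapped no deposited peak. NEAT1 (ENSG00000245532; starts spanning chr11:65422774-65425551) and KCNQ1OT1 (ENSG00000269821; start at chr11:2699994) lie on the same chromosome as MALAT1. The peak over the upstream start (chr11:65497170-65498076) had 27.9 of every 1000000 peak counts in cells, and that over the downstream start (chr11:65498692-65499514) had 5.25.

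MALAT1, NEAT1 and KCNQ1OT1 made up more of the RNA in cells than of free RNA, while GAS5 made up less. MALAT1 stood at 48060 CPM in cells and 20089 CPM in free RNA, a ratio of 2.39 (95% interval 2.36 to 2.43). NEAT1 stood at 4223 CPM in cells and 1918 CPM in free RNA, a ratio of 2.20 (2.09 to 2.32). KCNQ1OT1 stood at 162 CPM in cells and 61.9 CPM in free RNA, a ratio of 2.61 (1.97 to 3.54) that rests on 49 UMIs in the empty droplets. GAS5 stood at 332 CPM in cells and 672 CPM in free RNA, a ratio of 0.494 (0.452 to 0.541), on the other side of 1 from the RNAs it is grouped with as nuclear. Past 1.5-fold, 3 of the 4 were higher in cells, as were 36.9% of the 6910 genes compared, and 1 was lower, as were 10.3% of those genes. Ranked by ratio, 232 genes stood above KCNQ1OT1, 363 above MALAT1 and 601 above NEAT1, and 109 stood below GAS5. The median gene lay at a log2 ratio of 0.35, and scaling by trimmed means (TMM) or median ratios in place of totals takes 0.16 or 0.17 off every log2 ratio. With TMM the ratios were 2.14 for MALAT1, 1.97 for NEAT1, 2.34 for KCNQ1OT1 and 0.442 for GAS5.

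**Figure D1:**
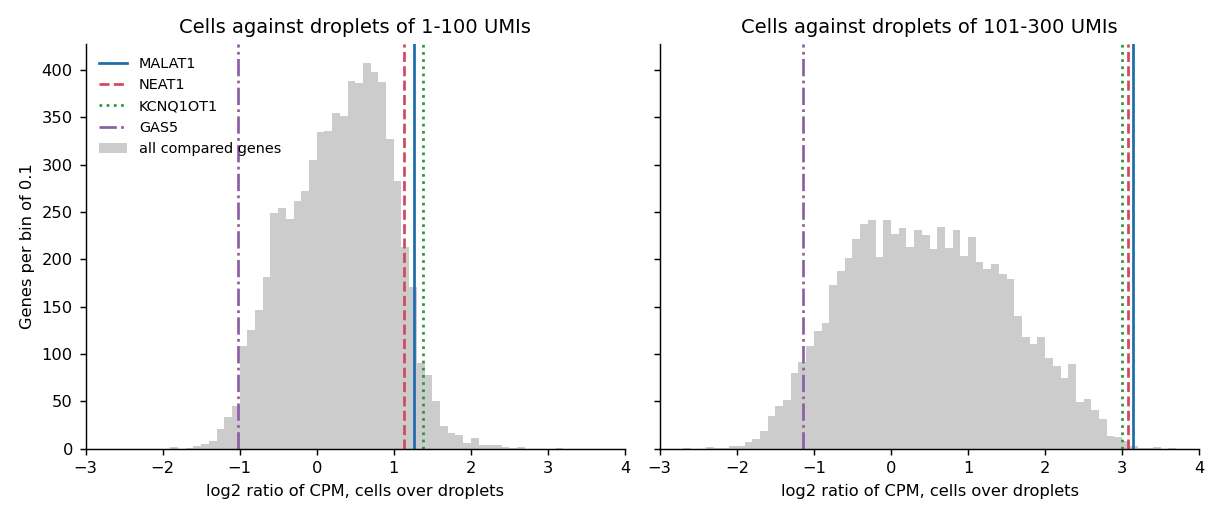
Histograms of the log2 ratio of CPM for every gene compared (bins of 0.1; y axis, genes per bin), in cells over empty droplets of 1 to 100 UMIs (left) and over the deeper droplets (right), with each lncRNA as a vertical line. MALAT1, NEAT1 and KCNQ1OT1 lie together on the right side of both histograms, further out in the right panel, and GAS5 lies on the left side of both.

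Transcripts that share a class with the 4 lncRNAs were compared in the same way. Over all 6910 genes compared, 36.9% were higher in cells past 1.5-fold, 10.3% were lower, and the median log2 ratio was 0.35. All 13 compared long genes, whose introns make much of their RNA nuclear precursor, were at least 1.5-fold higher in cells, with a median log2 ratio of 1.16; SMYD3 stood at 856 CPM in cells and 399 CPM in free RNA. Of 11 other lncRNAs, 7 were higher and 0 lower (median 0.72), with FTX at 462 CPM in cells and 220 CPM in free RNA and CYTOR, at 138 and 152 CPM in the same order, not past the fold. Of 20 speckle protein mRNAs 6 were higher (median 0.50), among them SON (306 CPM in cells, 176 CPM in free RNA). Of 12 paraspeckle protein mRNAs 1 was higher (median 0.26). Both shares were smaller than that over all genes. Of 44 compared mRNAs of G2 and mitosis, 18 were higher and 1 lower (median 0.55). Of 15 mRNAs for RNA decay factors, 7 were higher and 0 lower (median 0.56). On the side of GAS5 stood the other small nucleolar RNA hosts, with 5 of 13 lower and 0 higher (median -0.49), for example SNHG5 at 652 CPM in cells and 1295 CPM in free RNA. Ribosomal protein mRNAs had 70 of 81 lower and 0 higher (median -0.80), and abundant cytoplasmic mRNAs 6 of 18 lower and 0 higher (median -0.41). The GAS5 log2 ratio of -1.02 was below all 3 of these medians.

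The size of the retention depended on which droplets stood for free RNA. Barcodes of 1 to 3 UMIs made up 92.5% of the empty droplets. A second set, 22892 droplets of over 100 and up to 300 UMIs with under 100 peak counts (median 206 UMIs), was added after the data were seen and is called the deeper droplets here. MALAT1 had 48060 CPM in cells and 5439 CPM in the deeper droplets, a ratio of 8.84 (8.73 to 8.95). The ratio was 8.44 (8.10 to 8.79) for NEAT1, with 501 CPM in the deeper droplets, and 7.97 (6.50 to 9.88) for KCNQ1OT1, with 20.3 CPM there. GAS5 had 332 CPM in cells and 729 CPM in the deeper droplets, a ratio of 0.455 (0.436 to 0.475), close to its value above. Of 6863 genes, 45.8% were at least 1.5-fold higher in cells than in these droplets and 16.2% lower, around a median log2 ratio of 0.45.

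Against the deeper droplets, 6 genes had a larger ratio than MALAT1, 10 a larger one than NEAT1 and 16 a larger one than KCNQ1OT1. The 6 were AP001347.1, LINC01876, CCDC144A, SAMD3, RDH10-AS1 and CACNA1C (named after their values were seen), none above 56.1 CPM in cells. The long genes again had 13 of 13 higher (median 2.37) and the ribosomal protein mRNAs 79 of 82 lower (median -1.22). Mitochondrial transcripts moved with this choice of droplets. They made up 14.0% of UMIs in cells, 12.2% in the droplets of 1 to 100 UMIs and 2.33% in the deeper droplets, and their part in the difference between both sets was not tested. Leaving mitochondrial genes out of the totals gave a MALAT1 ratio of 2.44 against the droplets of 1 to 100 UMIs.

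Along barcode depth, the 3 retained RNAs were low in the deeper droplets compared with bins on both sides. Among barcodes with under 100 peak counts, MALAT1 stood at 20608 CPM at 1 to 3 UMIs, 21123 CPM at 4 to 10, 27736 CPM at 11 to 30, 11388 CPM at 31 to 100, 5439 CPM in the deeper droplets, 25504 CPM above 300 and under 1000, and 44254 CPM from 1000 to under 2000. NEAT1 stood at 1987 CPM at 1 to 3 UMIs, 501 CPM in the deeper droplets and 3746 CPM from 1000 to under 2000. KCNQ1OT1 stood at 67.4, 20.3 and 135 CPM in the same 3 bins. GAS5 had no such dip, at 656 CPM at 1 to 3 UMIs, 729 CPM in the deeper droplets, 531 CPM above 300 and under 1000, and 389 CPM from 1000 to under 2000. Barcodes with at least 1000 peak counts but fewer UMIs came nearer to cells. Above 300 and under 1000 UMIs, 13614 such barcodes had 41093 CPM of MALAT1, 4070 CPM of NEAT1, 163 CPM of KCNQ1OT1 and 368 CPM of GAS5. Above 100 and up to 300 UMIs, 767 of them were further from cells, with 29734 CPM of MALAT1, 3412 CPM of NEAT1, 121 CPM of KCNQ1OT1 and 491 CPM of GAS5.

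**Figure D2:**
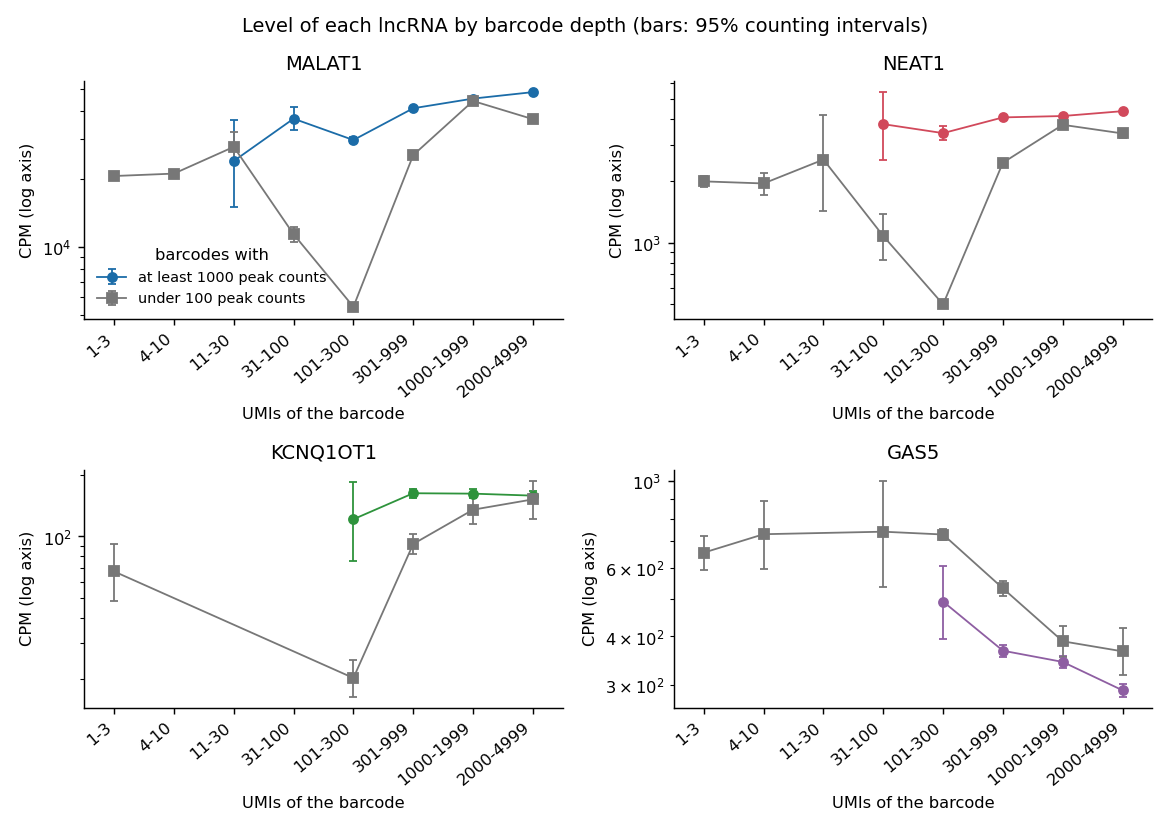
Level of each lncRNA (CPM, log axis) by the UMIs of the barcode (x axis, bins), for barcodes with at least 1000 peak counts (circles, coloured) and with under 100 peak counts (squares, grey), at any mitochondrial share; bars are 95% counting intervals, and points with under 10 UMIs of the gene are left out. In the bin of the deeper droplets, MALAT1 stood at 29734 CPM in barcodes with at least 1000 peak counts and 5439 CPM in those with under 100.

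Counted over all barcodes of the matrix, 38.1% of MALAT1 UMIs, 35.9% of NEAT1 UMIs, 35.6% of KCNQ1OT1 UMIs and 25.3% of GAS5 UMIs lay in the cells, against 30.4% of the UMIs of all genes. The deeper droplets held 1.23% of MALAT1 UMIs, 1.22% of NEAT1 UMIs, 1.27% of KCNQ1OT1 UMIs and 15.8% of GAS5 UMIs, against 8.68% for all genes. Levels were also read by depth inside the cells, where those of MALAT1 differed more by peak counts than by UMIs. In 4 equal groups of cells from fewest to most UMIs, MALAT1 stood at 46581, 47861, 47396 and 49023 CPM, and GAS5 at 340, 363, 348 and 307 CPM. In 4 equal groups from fewest to most peak counts MALAT1 rose, at 44426, 45261, 47686 and 52497 CPM. NEAT1 stood at 3936, 3860, 4171 and 4682 CPM in these groups, and KCNQ1OT1 at 160, 144, 167 and 171 CPM. GAS5 stood at 344, 355, 335 and 308 CPM there.

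Cells were grouped by their peaks alone, without expression, into 8 clusters of at least 100 cells (144 to 2500), and 38 cells stood apart. The settings of this grouping were chosen after embeddings had been compared, in part by 5 marker genes. Each cluster is given with its leading genes in expression. MALAT1 was highest in cluster 5 (764 cells, led by ITLN1 and CHI3L1), at 62161 CPM against 46857 CPM in all other cells, a ratio of 1.33 (1.32 to 1.34). NEAT1 was highest there too, at 5287 CPM against 4132 CPM (1.28, 1.25 to 1.31), as was KCNQ1OT1, at 193 CPM against 159 CPM (1.21, 1.06 to 1.38). None passed 1.5-fold, as 2.70% of 6849 genes did upward in that cluster. GAS5 there stood at 317 CPM against 333 CPM (0.951, 0.858 to 1.05). Cycle genes were low in cluster 5, with 14 of 45 compared G2 and mitosis genes and 10 of 19 S-phase genes at least 1.5-fold lower than in other cells, and none higher. Among cells with no UMI of the S-phase list the MALAT1 ratio of cluster 5 was 1.38 and that of NEAT1 was 1.22.

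In summed CPM all 4 RNAs had their lowest level in cluster 6 (726 cells, led by INHBA, an activin subunit, and IGFBP5). For MALAT1 cluster 1 was nearly as low, at 43368 CPM, and the mean over thinned cells was 43.6 of 1000 UMIs in both clusters. For GAS5 the next cluster up, cluster 8, did not differ from cluster 6 beyond counting error (1.07, 0.837 to 1.36). KCNQ1OT1 stood at 94.4 CPM (140 UMIs) in cluster 6 and 168 CPM in all other cells, a ratio of 0.561 (0.470 to 0.666). It was the single pairing of an lncRNA and a cluster, of 32, past 1.5-fold. The share of all compared genes at least 1.5-fold higher, and then lower, was 2.95% and 2.41% in cluster 1, 2.12% and 4.39% in cluster 2, 2.45% and 3.45% in cluster 3, 2.10% and 3.16% in cluster 4, 2.70% and 4.15% in cluster 5, 3.72% and 2.99% in cluster 6, 1.83% and 2.69% in cluster 7, and 9.63% and 11.2% in cluster 8. In cluster 6, 2.99% of 6956 genes were past the fold downward, and 50 genes had a lower ratio than KCNQ1OT1. After thinning each cell to 1000 UMIs, 7.99% of cluster 6 cells (95% Clopper-Pearson interval 6.12 to 10.2) had a KCNQ1OT1 UMI, and the other 7 clusters lay between 13.3% and 17.8%. Without thinning the share was 16.3% in cluster 6 and 23.9% to 27.2% in the other 7. The labels name no cell type in the pool that should lack KCNQ1OT1, so the share that free RNA gives in cells could not be read from one. NEAT1 stood at 3038 CPM in cluster 6 and 4339 CPM elsewhere (0.700, 0.679 to 0.722), MALAT1 at 42980 and 48558 CPM (0.885) and GAS5 at 294 and 336 CPM (0.876, 0.793 to 0.966).

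The cycle lists stood slightly high in cluster 6, at median log2 ratios of 0.21 for both. In cells outside the groups rich in G2M or S genes the ratios of cluster 6 were 0.543 for KCNQ1OT1 and 0.703 for NEAT1. Of 10 listed neighbours of KCNQ1OT1 in 11p15, 5 were compared in cluster 6 and 0 passed 1.5-fold. PHLDA2 stood at 58.7 CPM in cluster 6 and 61.4 CPM elsewhere, and NAP1L4 at 116 and 115 CPM. CD81 stood at 204 and 183 CPM in the same order, and SLC22A18 at 18.2 and 22.7 CPM (0.802). CDKN1C, the growth inhibitor of the same imprinted domain, had 15.5 CPM in cluster 6 and 16.0 CPM elsewhere, below the level for comparison. Around MALAT1 and NEAT1 in 11q13, 6 of 11 genes were compared and 0 passed the fold (median log2 ratio -0.20). None of the 12 compared paraspeckle protein mRNAs was past the fold in cluster 6, with SFPQ at 217 CPM there and 216 CPM elsewhere. Of 20 speckle protein mRNAs 1 was lower, and of 11 other lncRNAs 0 were.

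**Figure D3:**
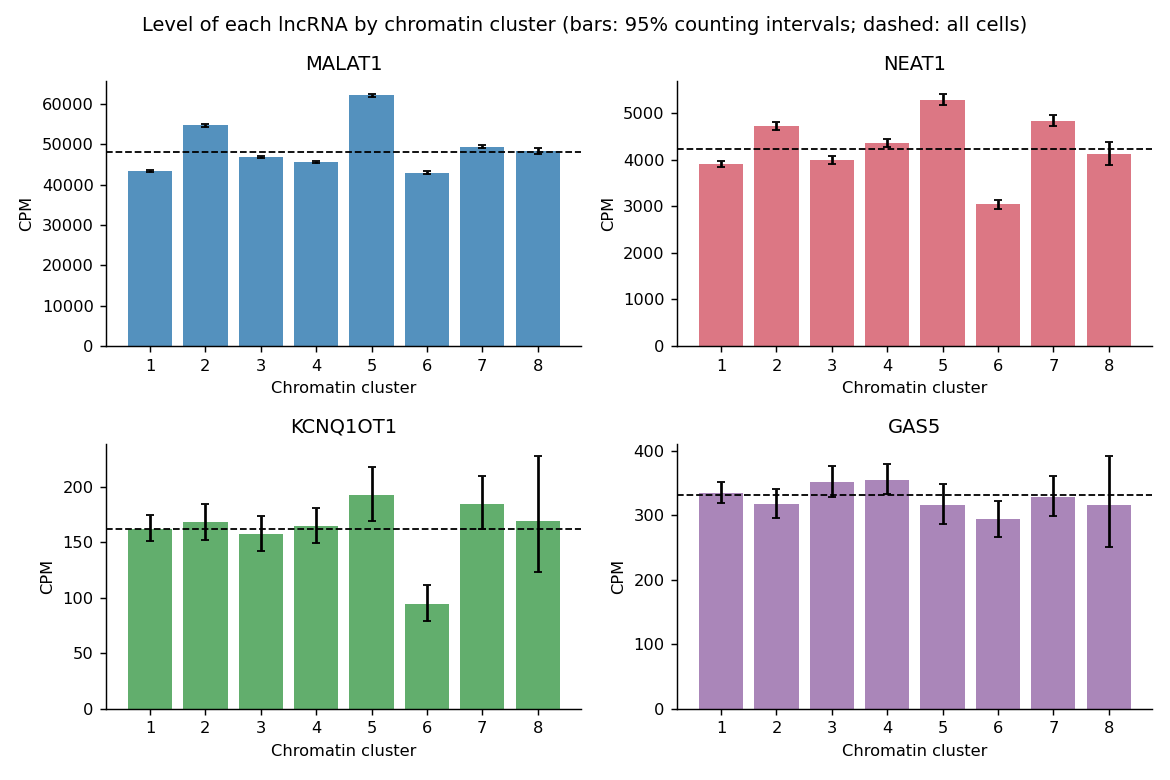
CPM of each lncRNA (y axis) in the 8 chromatin clusters (x axis); bars are levels of summed UMIs with 95% counting intervals, and the dashed line is the level over all cells. Cluster 5 is highest for MALAT1, NEAT1 and KCNQ1OT1, and cluster 6 is lowest for all 4, with KCNQ1OT1 at 94.4 CPM there. MALAT1 in cluster 1 is nearly as low, at 43368 CPM.

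From highest to lowest, the MALAT1 order of clusters was 5, 2, 7, 8, 3, 4, 1 and 6. The interval of each neighbouring ratio excluded 1, down to a ratio of only 1.01 for clusters 1 and 6. These intervals cover counting error only. Within the clusters the variance of MALAT1 over thinned cells was 11.9 to 15.2 times its mean. The intervals therefore do not settle the order of clusters with close levels. For NEAT1 the order was 5, 7, 2, 4, 8, 3, 1 and 6. Of its neighbouring pairs, 7 and 2, 4 and 8, 8 and 3, and 3 and 1 did not differ beyond counting error, while cluster 6 was apart from the next one up (the ratio of cluster 1 to it was 1.29, 1.24 to 1.33). For KCNQ1OT1 no neighbours differed beyond counting error until the last step, where cluster 3 had 1.67 times (1.37 to 2.04) the level of cluster 6. For GAS5 no neighbouring pair did. The highest cluster exceeded the lowest 2.04-fold for KCNQ1OT1, 1.74-fold for NEAT1, 1.45-fold for MALAT1 and 1.21-fold for GAS5. Over the 1245 genes with at least 2000 UMIs, mitochondrial genes left out, this ratio had a median of 1.38 (quartiles 1.26 and 1.58). Counting error raises the ratio more in genes with fewer UMIs, and this was not corrected for. More genes had a larger ratio than GAS5 (1053) than had one larger than MALAT1 (490), NEAT1 (178) or KCNQ1OT1 (89). Among cells of at most 10% mitochondrial UMIs the order differed: MALAT1 was highest in cluster 5 and lowest in cluster 4 (1.35), NEAT1 highest in cluster 8 and lowest in cluster 6 (1.40), and GAS5 highest in cluster 4 and lowest in cluster 8 (1.44, 0.790 to 2.94), while KCNQ1OT1 kept cluster 5 as highest and cluster 6 as lowest (2.57). KCNQ1OT1 was highest in cluster 7 with minimums of 2000 and in cells with no S gene UMI after thinning, where GAS5 was lowest in cluster 2.

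Accessibility at the gene starts was read in the same cells. In cells the peak at the NEAT1 start (chr11:65422097-65422859) had 37.1 of every 1000000 peak counts, that at KCNQ1OT1 (chr11:2699726-2700592) 19.7 and that at GAS5 (chr1:173867835-173868772) 53.0. The KCNQ1OT1 peak stood at 24.6 per 1000000 in cluster 6 and 19.3 in other cells, a ratio of 1.27 (0.935 to 1.70) where its RNA had 0.561. In cluster 7 (led by HSD3B1 and COLEC10) the same peak stood at 11.2 in the cluster and 20.5 in other cells. That is a ratio of 0.545 (0.342 to 0.828) resting on 46 peak counts in the cluster, while the RNA had 1.16 (1.01 to 1.32). Over peaks within 100 kb of KCNQ1OT1 the ratio was 1.13 (0.989 to 1.30) in cluster 7 and 0.884 (0.760 to 1.02) in cluster 6. The share of all peaks past 1.5-fold is not given here. The NEAT1 peak in cluster 6 had a ratio of 1.10 (0.866 to 1.37), and both MALAT1 peaks together had 1.05 (0.816 to 1.33) in cluster 5. In cluster 6 the GAS5 peak had a ratio of 0.767 (0.610 to 0.954), where its RNA had 0.876. Both MALAT1 peaks together had 0.813 (0.611 to 1.06) in cluster 6, where the RNA had 0.885. Intervals on peaks take every 2 counts as 1 event, and the clusters were drawn from peaks, so these are descriptions.

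NEAT1 was lower in cells rich in cycle transcripts. Cells with at least 7 of 1000 thinned UMIs in G2 and mitosis genes (969 cells) had 3496 CPM of NEAT1, against 4953 CPM in 1038 cells with none, a ratio of 0.706 (0.685 to 0.727). That is short of 1.5-fold, as were all 4 RNAs; 2.98% of 6044 genes were at least 1.5-fold lower there, 7.48% were higher, and 270 genes had a lower ratio than NEAT1. MALAT1 stood at 48251 CPM in G2M-rich cells and 52642 CPM in cells without (0.917, 0.909 to 0.924), KCNQ1OT1 at 154 and 179 CPM (0.858, 0.738 to 0.997), and GAS5 at 300 and 317 CPM (0.946, 0.847 to 1.06). The mRNAs of paraspeckle proteins lay on the other side, at a median log2 ratio of 0.32 with 1 of 12 past 1.5-fold upward and 0 downward. SFPQ had 269 CPM in G2M-rich cells and 187 CPM in cells without. Of 11 other lncRNAs 2 were lower and 0 higher past the fold, at a median log2 ratio of 0.05. FTX, 1 of those 2, stood at 361 CPM in G2M-rich cells and 556 CPM in cells without (0.648, 0.591 to 0.710). Median depth was 1731 UMIs in the G2M-rich cells and 1802 UMIs in those without, with 13.7% and 14.8% mitochondrial UMIs.

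For S-phase genes, 1101 cells with at least 3 of 1000 UMIs were set against 3303 cells with none. NEAT1 stood at 3752 CPM in S-rich cells and 4526 CPM in cells without (0.829, 0.809 to 0.850), MALAT1 at 45750 and 49694 CPM (0.921), GAS5 at 304 and 340 CPM (0.894, 0.818 to 0.976) and KCNQ1OT1 at 148 and 165 CPM (0.898, 0.790 to 1.02). None passed 1.5-fold, as 1.38% of 6951 genes did downward and 5.12% upward.

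The share of mitochondrial UMIs, which is often high in damaged cells, was taken as another axis. Levels here are CPM over UMIs outside mitochondrial genes. MALAT1 had 71562 CPM in the 69 cells of at most 5% mitochondrial UMIs, 61122 CPM at 5 to 10%, 54371 CPM at 10 to 15% and 55248 CPM at 15 to 20%. In barcodes above the limit for cells it had 57045 CPM at 20 to 30% and 58153 CPM beyond 30%. NEAT1 had 5194, 4543, 4657 and 5302 CPM in the same 4 bins of cells, and 5736 and 6136 CPM above the limit. From the 5 to 10% bin on, each bin of NEAT1 was thus higher than the one before. KCNQ1OT1 had 242, 183, 191 and 186 CPM in cells and 207 and 204 CPM above the limit, with the first of these resting on 28 UMIs. GAS5 had 329, 415, 384 and 379 CPM in cells and 344 and 295 CPM above the limit. Over the 4 bins of cells the ratio of the highest to the lowest was 1.32 (1.29 to 1.35) for MALAT1 and 1.17 (1.14 to 1.19) for NEAT1. For KCNQ1OT1 (1.32, 0.868 to 1.94) and GAS5 (1.26, 0.913 to 1.80) the interval of this ratio included 1. Both ratios rest on the bin of at most 5%, with 28 KCNQ1OT1 UMIs and 38 GAS5 UMIs. They do not show whether the better counted bins differ from each other. The order of bins depended on the processing: in cells with at least 2000 UMIs and 2000 peak counts MALAT1 was lowest in the bin of at most 5% and highest at 15 to 20% (a ratio of 1.13), and over all UMIs NEAT1 was highest in the bin of at most 5% (1.24 over the 10 to 15% bin).

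**Figure D4:**
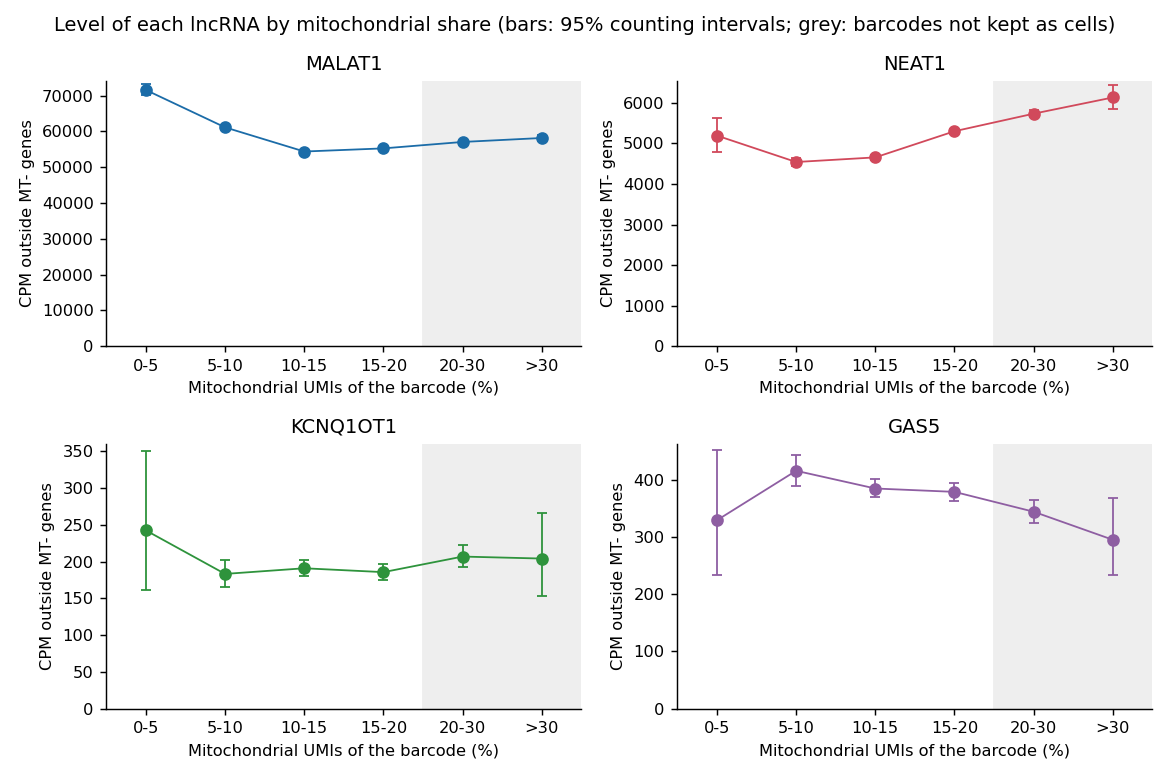
CPM of each lncRNA over UMIs outside mitochondrial genes (y axis) by the share of mitochondrial UMIs of the barcode (x axis, %), with 95% counting intervals; the grey area holds barcodes above the 20% limit. NEAT1 runs upward from 4543 CPM at 5 to 10% to 6136 CPM beyond 30%, and GAS5 downward from 415 CPM to 295 CPM over the same bins.

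From cell to cell MALAT1 varied widely. Of 1000 UMIs a cell had a median of 44 from MALAT1 (5th percentile 13, 95th percentile 96, range 1 to 228), and all 8913 cells had at least 1. Its variance was 14.0 times its mean, and this ratio grows with a gene's mean. The value was larger than for any other of the 1245 genes with at least 2000 UMIs, whose median was 1.03. Mitochondrial genes were left out of these 1245. After counting noise was taken off, its coefficient of variation of 0.522 was exceeded by 214 genes. NEAT1 had a median of 4 UMIs (5th percentile 1, 95th percentile 9, highest 35), a variance of 1.93 times its mean (6 genes had more) and at least 1 UMI in 95.3% of thinned cells (98.5% without thinning). KCNQ1OT1 was seen in 14.6% of thinned cells (24.6% without thinning) and GAS5 in 27.7% (42.5%). Their variances, 1.03 and 1.06 times the mean, say little at such low means, and after counting noise was taken off the coefficient of variation was 0.449 for KCNQ1OT1, 0.416 for GAS5 and 0.472 for NEAT1, against a median of 0.349 over the 1245 genes. Over the 8913 thinned cells, which share 1 library, the Pearson r of MALAT1 and NEAT1 was 0.33, and 0.24 to 0.42 within the 8 clusters. The other 5 pairs had r between -0.07 and 0.08.

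**Figure D5:**
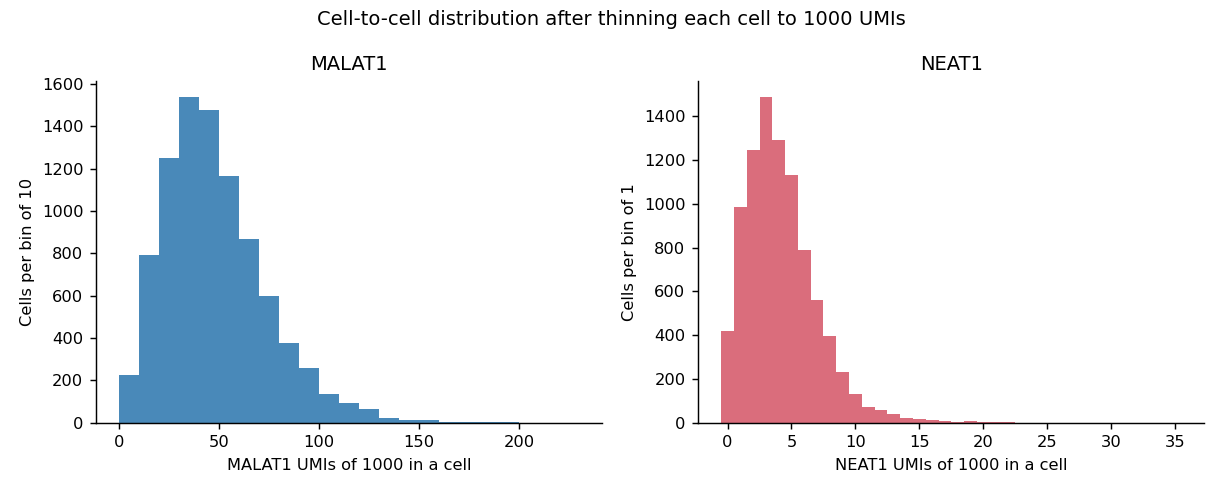
Distribution over the 8913 cells (y axis, cells per bin) of MALAT1 UMIs (left, bins of 10) and NEAT1 UMIs (right, bins of 1) among 1000 UMIs drawn from each cell (x axis). MALAT1 centres on a median of 44 with a tail to 228, and NEAT1 on a median of 4 with a tail to 35.

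The genes most like each RNA were sought over 23 groups of at least 50 cells, formed by cluster and mitochondrial bin, by the Pearson r of log2(CPM + 1) outside mitochondrial genes. These groups share 1 library. Nearest to MALAT1 were ZBTB20 (r = 0.77), ITPR2, PHACTR1, FTX and KLHL5 (r = 0.70). Nearest to NEAT1 were USP40 (r = 0.85), PTGIS, SCD, IGFL2-AS1 and STAT3 (r = 0.77). KCNQ1OT1 had MBD5 (r = 0.77), IGF1R, NEAT1 (r = 0.74), B4GALT5 and FGD6 (r = 0.66). GAS5 had HSPE1 (r = 0.67), RPS26, the small nucleolar RNA host SNHG5 (r = 0.64), RPS12 and COX7C (r = 0.62). Among the members MALAT1 and NEAT1 had r = 0.57, and KCNQ1OT1 had r = 0.44 with MALAT1. GAS5 had r = 0.43 with KCNQ1OT1, 0.07 with MALAT1 and 0.08 with NEAT1.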

How the data were processed

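Per the labels' protocols, cells were hashtagged, pooled, permeabilised and run on the 10x Multiome assay. The authors deposited unnormalised counts, UMIs for genes and transposition counts for peaks, and the file headers name Cell Ranger ARC 2.0.0. GRCh38.p10, MACS2, ArchR 1.0.3 and Cell Ranger 2.0.0 also stand in the submitters' processing notes, with no role given. The matrix holds 54494965 UMIs in 651860 barcodes, unfiltered. The count minimums alone passed 11130 barcodes, and the mitochondrial limit removed 2217 of them. No doublet caller was run, and doublets remain.

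UMIs were summed over groups of barcodes and scaled to CPM. Ratios carry exact conditional binomial 95% intervals. With 1 pooled sample there is no p-value; called means past 1.5-fold, among genes whose 2 sums held 100 UMIs or more together, and 20 CPM or more in the higher. Cells were thinned to 1000 UMIs for shares, spread and cycle groups; the upper cycle groups are cells at or above the 90th percentile of summed UMIs of 50 G2M or 40 S genes.

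Clusters came from peaks seen in at least 20 cells (log TF-IDF, 30 components of which 29 were kept, 15 neighbours, Jaccard weights, Leiden 0.5, seed 0; Python 3.11.15, scipy 1.17.1, leidenalg 0.10.2). Scaling each cell to unit length and pruning the graph were adopted after several embeddings were compared for cluster size, depth and 5 marker genes; without them a large shallow cluster formed. TMM factors came from edgeR 4.0.16. The ratio was tested on simulated counts drawn as independent Poisson values. These hold no variation from cell to cell, so that test cannot show whether the intervals cover it. The named genes are the 4 members, up to 4 members of each list by UMIs, the 5 genes most like each member, and the 5 most extreme genes against free RNA. Some genes, among them CDKN1C and the leading genes of clusters, were named outside these groups. Spread over cells and over clusters is set beside all genes with at least 2000 UMIs, mitochondrial genes left out. Promoter sequences are from RefSeq (GRCh38.p14), which matched 2 of the 4 members by symbol. The members and the lists were chosen with earlier results of these data known.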

Additional observations from a re-analysis of the deposited data

How the results depend on the processing

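Every value below comes from 1 pooled sample, so the alternatives show the effect of processing and not of replication. No paired analysis was possible because the pool has no replicates and no test was made. Of 408 recomputed ratios (each ratio under each alternative, without those of highest to lowest group, which are at least 1 by construction) 373 kept the direction of the reported value. All 51 whose reported value was past 1.5-fold stayed past it: those of cells over free RNA, and KCNQ1OT1 in cluster 6. The cause of the differences was not tested.

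The MALAT1 ratio of cells over free RNA was 2.30 with minimums of 500, 2.48 with minimums of 2000, 2.82 at a 10% mitochondrial limit, 2.34 with no limit, 2.44 outside mitochondrial genes, 2.32 against droplets of 1 to 10 UMIs and 3.72 against droplets of 11 to 100 UMIs. With TMM it was 2.14, with median ratios 2.12 and against the deeper droplets (chosen after the data were seen, like all settings named as added) 8.84. NEAT1 had 3.48 against droplets of 11 to 100 UMIs, 1.97 with TMM, 1.96 with median ratios and 8.44 against the deeper droplets, where KCNQ1OT1 had 7.97. GAS5 had 0.562 at the 10% limit, 0.442 with TMM and 0.439 with median ratios. Genes lower in cells numbered 714, and 464 at the 10% limit, 1630 against droplets of 11 to 100 UMIs, 1107 with TMM, 1137 with median ratios, 1110 against the deeper droplets and 2214 with a floor of 10 UMIs. Genes higher numbered 2547, and 6551 with that floor.

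The ratio of the highest to the lowest cluster for MALAT1 was 1.60 at a Leiden resolution of 1.0, 1.35 at 0.3, 1.64 in cells with minimums of 2000, 1.35 at the 10% limit (cluster 5 over 4) and 1.47 with free RNA subtracted. Under added settings it was 1.74 without unit length, 1.42 without the 8% of cells with the most UMIs and 1.48 outside the cycle groups. Also added, it was 1.53 in cells with no S gene UMI after thinning and 1.48 with the deeper droplets subtracted. For NEAT1 it was 1.64 at resolution 0.3, 2.09 with minimums of 2000, 1.40 at the 10% limit (cluster 8 over 6, no longer past 1.5-fold), and, added, 2.23 without unit length and 1.61 without the cells with the most UMIs. For KCNQ1OT1 it was 2.57 at the 10% limit. For GAS5 it was 1.44 at the 10% limit (cluster 4 over 8) and, added, 1.36 without unit length. Redrawn partitions number clusters anew, so reported clusters were matched by Jaccard index (cells shared over cells in either). At resolution 1.0 the highest MALAT1 cluster was not the match of cluster 5, and the lowest matched cluster 1. At 0.3 clusters 2 and 5 shared the match that was highest for MALAT1 and NEAT1. Without unit length the highest for both matched cluster 5, at an index of only 0.28. The lowest matched cluster 1 for MALAT1 (0.51) and cluster 6 for NEAT1 (0.35).

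Over mitochondrial bins the highest to lowest ratio over all UMIs was 1.52 for MALAT1 (at most 5% over 15 to 20%) and 1.24 for NEAT1 (at most 5% over 10 to 15%, where the reported ratio had 15 to 20% on top). With minimums of 2000 it was 1.13 for MALAT1, with the direction turned (15 to 20% over at most 5%), and 1.33 for NEAT1 (the same bins). With minimums of 2000 the ratio of G2M-rich cells to those without was 0.878 for MALAT1 and 0.672 for NEAT1, and that of S-rich cells was 0.855 for MALAT1, 0.768 for NEAT1 and 0.789 for KCNQ1OT1. Outside mitochondrial genes MALAT1 had 0.905 for G2M and 0.912 for S. KCNQ1OT1 (140 UMIs in cluster 6) and the 49 free RNA UMIs behind its ratio limit what depth can show.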

Other observations

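The 5 genes with the highest ratio of cells to free RNA rest on few free UMIs. EIF2AK3, a kinase of the unfolded protein response, had the highest ratio, 9.02, with a counting interval of 2.48 to 74.7 and 2 UMIs in the empty droplets. ZBTB7C (6.31), DNASE1 (6.22), SNX25 (5.84) and UST (5.42) followed, with 3 to 5 UMIs each there. The lowest ratio was that of MT-ND6, the mitochondrial gene for a complex I subunit encoded on the light strand, at 585 CPM in cells and 2162 CPM in free RNA (0.270, 0.257 to 0.285), with 1711 UMIs in the empty droplets. Against the deeper droplets MT-ND6 had a ratio of 5.79. BEST1 (0.276), AC006064.4 (0.315), TMEM158 (0.344) and AP000331.1 (0.349) were the next lowest, with 20 to 53 UMIs each there. AP000331.1 had a ratio of 8.70 against the deeper droplets.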
